A study of Mus musculus with 12 samples.

Results

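Blood clotting and the dissolution of clots are described here through 9 genes in the mouse heart: Thbd, Procr, Tfpi, F3, Plat, Plau, Plaur, Vwf and F13a1. They were taken by name, as genes of coagulation and fibrinolysis. The expression of each was the sum of its listed Ensembl transcripts, mapped to genes with the GENCODE annotation of GRCm38. All 9 were listed, among 12866 genes in all, and all 9 were among the 11509 tested genes, those with 1 FPKM or more in 4 or more libraries. FPKM counts fragments relative to the length of a transcript and the total of its library. Hearts of wild-type (WT) C57BL/6 mice were sequenced in 12 libraries, 4 in each of 3 groups. LPS+XJDHT mice received lipopolysaccharide at 10 mg/kg and XJDHT at 50 mg/kg per day, LPS mice received the same LPS dose with saline, and Control mice received saline alone, each over 3 days. Lipopolysaccharide is an outer membrane component of Gram-negative bacteria, used as a model of sepsis without live bacteria, and XJDHT is Xijiao Dihuang decoction, a Chinese herbal formula. The age of the mice is not given in the labels.

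Clotting starts when tissue factor, the product of F3, meets factor VII in blood, and it ends in thrombin, which cuts fibrinogen to fibrin. The vessel wall holds this back: TFPI blocks the tissue factor complex, and thrombomodulin (Thbd) and the endothelial protein C receptor (Procr) let thrombin activate protein C, an anticoagulant. Factor XIII, whose A subunit is F13a1, crosslinks fibrin, and von Willebrand factor (Vwf) tethers platelets to the injured wall. Fibrin is removed by plasmin, which tissue-type (Plat) and urokinase-type (Plau) activators release from plasminogen, with Plaur holding urokinase at the cell surface.

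The stretch of 250 bases before the transcription start was searched in the members with an entry in the RefSeq promoter table for GRCm38.p6, which were 5 of the 9, with 7 windows. The motifs were AP-1 (TGANTCA), NF-kB, EGR (GCGNGGGCG), KLF (GGGTGNGG) and the TATA box (TATAAA), read on both strands. Matches to AP-1 were found in 3 genes, and their windows are shown because Plaur and Procr were higher after LPS while F3 did not pass the test. Each is written 5′ to 3′ on the plus strand, which is the strand of the gene, and capitals mark every match. The window of Procr is cut to its first 150 bases, because the GENCODE start of the gene lies 100 bases before the RefSeq start.
Plaur, chr7:24462233-24462482: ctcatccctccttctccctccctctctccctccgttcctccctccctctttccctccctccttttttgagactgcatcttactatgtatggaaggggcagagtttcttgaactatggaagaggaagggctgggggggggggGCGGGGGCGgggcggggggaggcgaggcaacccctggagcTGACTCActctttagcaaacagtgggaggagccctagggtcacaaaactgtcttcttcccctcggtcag
Procr, chr2:155750967-155751116: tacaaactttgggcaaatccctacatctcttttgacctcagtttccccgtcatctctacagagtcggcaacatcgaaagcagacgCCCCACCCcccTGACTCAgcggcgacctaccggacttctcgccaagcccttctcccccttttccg
F3, chr3:121723287-121723536: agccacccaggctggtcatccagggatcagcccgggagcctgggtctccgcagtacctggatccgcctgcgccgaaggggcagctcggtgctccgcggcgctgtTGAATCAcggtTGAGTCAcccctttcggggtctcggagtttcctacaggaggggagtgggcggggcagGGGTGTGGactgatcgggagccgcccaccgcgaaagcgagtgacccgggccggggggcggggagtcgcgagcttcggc
In Plaur an EGR match began 109 bases and an AP-1 match 69 bases before the start. In Procr a KLF match on the opposite strand began 165 bases and an AP-1 match 154 bases before the RefSeq start, which is 65 and 54 bases before the GENCODE start. F3 held AP-1 matches that began 146 and 135 bases before the start and a KLF match that began 78 bases before it. The windows of all 32851 promoters in the table held AP-1 in 6.75%, EGR in 4.7%, KLF in 14.9%, the TATA box in 12.4% and NF-kB in 0.356%. No match to the NF-kB letters was found in the 7 windows. That says little, as so few promoters hold these letters, and NF-kB sites with other letters were not searched. F13a1 held a KLF match in 1 of its windows, and Tfpi a TATA box match in 1. A match is a description of the letters and not a binding site.

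Depth, worked out from the steps between the deposited values, was 73.8 to 77.9 M fragments per library (M, mega) and alike in the 3 groups. Between 87 and 12048 fragments stood behind a member's value in 1 library, the fewest for Procr in Control. The labels name each sample by a number and say nothing of litters, cages or pooling, so p-values measure the spread between these samples. LPS+XJDHT 2 stood apart in its Y-linked genes, which summed to 0.205 FPKM against 20.4 to 61.9 FPKM in the other 11 libraries. Y-linked genes mark male mice, and the labels give no sex. Whether LPS+XJDHT 2 came from a female, so that its group mixed the sexes, was not tested. Leaving out LPS+XJDHT 2 kept the same count of members called: 3 higher and 1 lower in LPS+XJDHT against Control and 0 in LPS+XJDHT against LPS. As a check of the tissue, cardiomyocyte markers were high in every library, with sums over 7 genes of 5051 to 6667 FPKM in LPS+XJDHT, 5772 to 7151 FPKM in LPS and 10403 to 11369 FPKM in Control. Of these, 3 of 7 (Myh6, Tnni3 and Myl2) were lower in LPS against Control, where 12% of all genes fell. The same 3 were lower in LPS+XJDHT against Control, where 10.7% of all genes fell. In bulk tissue, fewer cells of a type and less RNA per cell cannot be told apart.

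LPS against Control asks what endotoxin did to these genes in the heart. Plaur, Plat and Procr rose and Thbd fell, while Tfpi, F3, Plau, Vwf and F13a1 did not pass the test. So 4 of 9 members were called at an adjusted p below 0.05 (limma, Benjamini-Hochberg over all genes tested), where 38.6% of all genes were called, 26.6% higher and 12% lower. The groups did not overlap in the same 4 members, against 37.4% of all genes. Procr, with 0.722 FPKM in Control 1, met the filter only with the help of LPS-treated libraries, where it is high. Neither its call nor its lack of overlap can therefore be set against the shares of all genes. The members' median log2 fold change was 0.01, against 0.16 over all genes.

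LPS+XJDHT against LPS asks whether the decoction moved these genes in LPS-treated hearts. Of the 9 members, 0 passed the test, 0 had groups that did not overlap, and 0 had an unadjusted p below 0.05. Of all genes, 0.113% were called (0.0% higher and 0.113% lower), and 2.82% had groups that did not overlap. LPS+XJDHT against Control called the same 4 members in the same directions as LPS against Control, 3 higher and 1 lower, where 39.2% of all genes were called (28.5% higher and 10.7% lower) and 42.1% did not overlap. The limit given above for Procr holds here too. The comparisons share libraries, so these counts are not independent of each other.

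**Figure D1:**
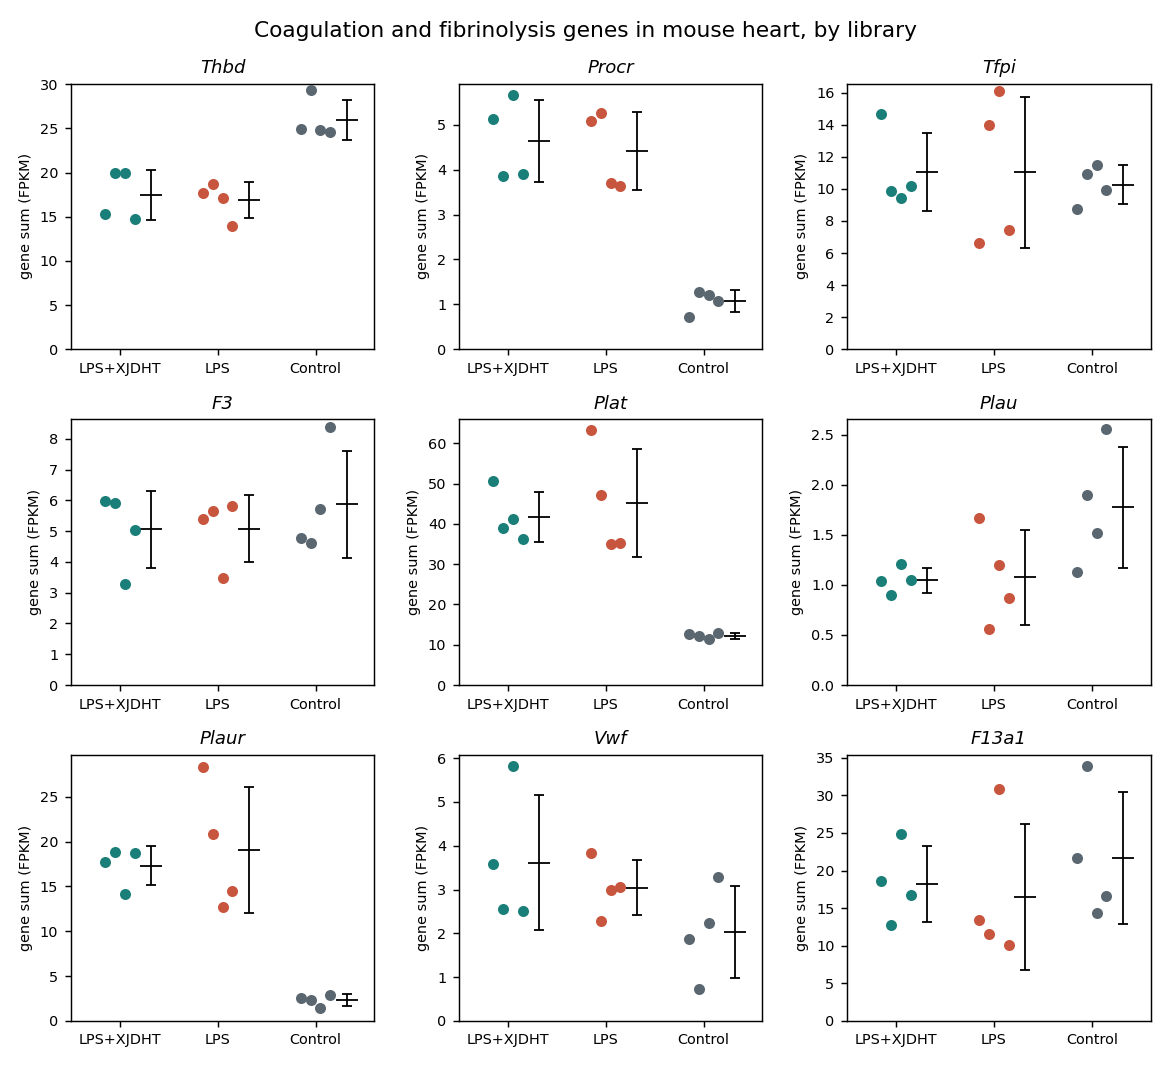
Gene expression (sum of FPKM over listed transcripts, linear axis from 0) of the 9 genes in each library of the LPS+XJDHT, LPS and Control groups. Points are libraries 1 to 4 from left to right within a group, and the bar beside them is the mean with its SD (n = 4). Plat, Plaur and Procr lie higher, and Thbd lower, in all 8 LPS-treated libraries than in any Control library.

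The thrombin receptor thrombomodulin and its partner moved in opposite directions. Thbd (chromosome 2, 148404466 to 148408188, minus strand, 1 exon in its only annotated transcript) had 15.3, 19.9, 19.9 and 14.7 FPKM in LPS+XJDHT libraries, 17.7, 18.7, 17.1 and 14.0 FPKM in LPS libraries, and 24.97, 29.3, 24.8 and 24.6 FPKM in Control libraries. Every LPS-treated library was below every Control library, and LPS+XJDHT and LPS overlapped. The log2 fold change of Thbd was -0.60 ± 0.13 (SE) in LPS against Control (limma adjusted p = 0.0034) and -0.55 ± 0.13 in LPS+XJDHT against Control (limma adjusted p = 0.0052). Between LPS+XJDHT and LPS it was 0.04, with a 95% interval of -0.24 to 0.32.

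Procr (chromosome 2, 155751117 to 155755471, plus strand) encodes the receptor that presents protein C to thrombomodulin. It had 5.12, 3.85, 5.67 and 3.91 FPKM in LPS+XJDHT libraries, 5.08, 5.25, 3.71 and 3.64 FPKM in LPS libraries, and 0.722, 1.27, 1.21 and 1.07 FPKM in Control libraries. Its lowest LPS-treated library was above its highest Control library. Its log2 fold change was 1.39 ± 0.16 in LPS against Control (limma adjusted p = 5.6e-05) and 1.44 ± 0.16 in LPS+XJDHT against Control (limma adjusted p = 4.7e-05). Between LPS+XJDHT and LPS it was 0.06 (95% interval -0.29 to 0.40). Control levels near the pseudocount of 1 compress the change of Procr against Control, which was 1.96 in LPS and 2.03 in LPS+XJDHT with a pseudocount of 0.1, and 2.06 and 2.13 with limma-voom. On the log2(FPKM + 1) scale the level of Thbd exceeded that of Procr by 1.71 ± 0.29 in LPS+XJDHT, 1.73 ± 0.14 in LPS and 3.71 ± 0.16 in Control (SD, n = 4). In this difference every LPS-treated library lay below every Control library, at most 2.11 against at least 3.55.

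Tfpi (chromosome 2, 84432855 to 84476775, minus strand), the inhibitor of the tissue factor pathway, did not pass the test as a sum, while 2 of its transcripts did. The sum was 14.6, 9.85, 9.45 and 10.2 FPKM in LPS+XJDHT libraries, 6.63, 14.0, 16.1 and 7.42 FPKM in LPS libraries, and 8.73, 10.9, 11.5 and 9.95 FPKM in Control libraries. The LPS libraries lay both above and below all Control libraries. The log2 fold change of the sum was 0.01 in LPS against Control (95% interval -0.53 to 0.56, limma adjusted p = 0.97), 0.07 in LPS+XJDHT against LPS (-0.48 to 0.61) and 0.08 in LPS+XJDHT against Control (-0.46 to 0.62).

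Among the 6 listed Tfpi transcripts, which share exons, Tfpi-201 and Tfpi-205 differ at their 3′ ends. The gene lies on the minus strand, and Tfpi-201 ends at 84432860 while Tfpi-205 ends at 84440723. Tfpi-205 had 1.20, 0.279, 0.929 and 1.26 FPKM in LPS+XJDHT libraries, 0.134, 0.524, 2.40 and 0.255 FPKM in LPS libraries, and 2.74, 3.33, 4.31 and 2.92 FPKM in Control libraries. All 8 LPS-treated libraries were below all Control libraries. It fell by 1.38 on the log2 scale in LPS against Control (SE 0.33, limma adjusted p = 0.010 over all transcripts) and by 1.20 in LPS+XJDHT against Control (SE 0.33, limma adjusted p = 0.021). The second call was lost without Control 3 (limma adjusted p = 0.056), without LPS+XJDHT 2 (0.054) and with a pseudocount of 0.1 (0.062). Tfpi-201 had 10.2, 5.56, 4.55 and 5.18 FPKM in LPS+XJDHT libraries, 4.29, 6.54, 4.40 and 4.31 FPKM in LPS libraries, and 2.83, 1.54, 3.59 and 2.51 FPKM in Control libraries. It was higher in LPS+XJDHT than in Control by 1.00 ± 0.25 (limma adjusted p = 0.013), and 0.72 ± 0.25 in LPS against Control did not pass (limma adjusted p = 0.056), but did without Control 3 (0.047), without LPS+XJDHT 1 (0.026), with a pseudocount of 0.1 (0.049) and at a limit of 5 FPKM (0.045). Tfpi-201 made up 56.3% ± 9.61 of the Tfpi sum in LPS+XJDHT, 49.2% ± 16.3 in LPS and 25.7% ± 8.33 in Control (SD, n = 4). For that share, the exact two-sided permutation p was 0.0857 in LPS against Control (0.154 adjusted over 9 tests) and 0.0286 in LPS+XJDHT against Control (0.0857 adjusted), the smallest that 4 against 4 libraries can give.

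F3 (chromosome 3, 121723537 to 121735048, plus strand), tissue factor, was measured by 1 listed transcript. It had 5.98, 5.93, 3.28 and 5.04 FPKM in LPS+XJDHT libraries, 5.39, 5.64, 3.46 and 5.81 FPKM in LPS libraries, and 4.79, 4.62, 5.70 and 8.38 FPKM in Control libraries. The 3 groups overlapped. Its log2 fold change was -0.17 in LPS against Control (95% interval -0.63 to 0.30, limma adjusted p = 0.58), -0.01 in LPS+XJDHT against LPS (-0.48 to 0.46) and -0.18 in LPS+XJDHT against Control (-0.65 to 0.29). On the log2(FPKM + 1) scale the level of F3 minus that of Tfpi was -0.997 ± 0.287 in LPS+XJDHT, -0.919 ± 0.799 in LPS and -0.739 ± 0.369 in Control (SD, n = 4), with overlapping groups.

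Of the genes of plasminogen activation, Plat and Plaur rose after LPS and Plau did not pass the test. Plat (chromosome 8, 22757727 to 22782844, plus strand), the tissue-type activator, had 50.6, 39.0, 41.2 and 36.2 FPKM in LPS+XJDHT libraries, 63.3, 47.2, 34.9 and 35.2 FPKM in LPS libraries, and 12.7, 12.1, 11.3 and 12.9 FPKM in Control libraries. All 8 LPS-treated libraries exceeded all Control libraries. The log2 fold change was 1.76 ± 0.17 in LPS against Control (limma adjusted p = 2.1e-05) and 1.68 ± 0.17 in LPS+XJDHT against Control (limma adjusted p = 3.0e-05). Between LPS+XJDHT and LPS it was -0.08 (95% interval -0.46 to 0.30).

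Plaur (chromosome 7, 24462484 to 24475968, plus strand), the urokinase receptor, had 17.7, 18.8, 14.1 and 18.7 FPKM in LPS+XJDHT libraries, 28.3, 20.8, 12.7 and 14.5 FPKM in LPS libraries, and 2.58, 2.38, 1.46 and 2.94 FPKM in Control libraries. LPS-treated and Control libraries did not overlap, and LPS libraries spread more than LPS+XJDHT libraries, with an SD of 7.04 against 2.20 FPKM. The log2 fold change was 2.55 ± 0.23 in LPS against Control (limma adjusted p = 1.0e-05) and 2.47 ± 0.23 in LPS+XJDHT against Control (limma adjusted p = 1.4e-05). Between LPS+XJDHT and LPS it was -0.08 (95% interval -0.58 to 0.42).

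The sum of Plaur was made up of 3 transcripts, all of which passed the test in LPS against Control. Plaur-202 and Plaur-204 met the limit of 1 FPKM in 4 libraries only through LPS-treated libraries, so they were tested because they are high there. The coding Plaur-201 had 8.61, 12.9, 5.78 and 9.70 FPKM in LPS+XJDHT libraries, 23.0, 14.3, 7.67 and 10.1 FPKM in LPS libraries, and 2.56, 2.20, 1.44 and 2.83 FPKM in Control libraries. Plaur-204, annotated as a retained intron, had 6.50, 1.83, 5.34 and 6.96 FPKM in LPS+XJDHT libraries, 1.70, 4.68, 4.07 and 3.10 FPKM in LPS libraries, and 0.0265 FPKM in 1 Control library with the other 3 listed at 0. Plaur-202, the other retained intron form, ranged from 2.02 to 4.05 FPKM in LPS+XJDHT, from 1.01 to 3.54 FPKM in LPS and from 0.0147 to 0.153 FPKM in Control. The 3 transcripts rose in LPS against Control by 2.09 ± 0.31 (Plaur-201, limma adjusted p = 0.00072), 2.07 ± 0.33 (Plaur-204, 0.00095) and 1.39 ± 0.25 (Plaur-202, 0.0020) on the log2(FPKM + 1) scale, which understates changes from levels near 0. The coding share of the sum was 52.6% ± 11.7 in LPS+XJDHT, 69.9% ± 8.76 in LPS and 96.8% ± 3.19 in Control (SD, n = 4). The exact two-sided permutation p of that share was 0.0286 in LPS against Control and in LPS+XJDHT against Control (0.0857 adjusted for each) and 0.0857 in LPS+XJDHT against LPS (0.154 adjusted), so no difference in share passed after adjustment. As 0.0286 is the smallest p possible here, any could have passed only if most of the 9 shares tested had reached it. The share was at most 81.5% in LPS and 68.8% in LPS+XJDHT, and at least 92.5% in Control. The assignment of reads to overlapping transcripts was made by the authors, and its error is not given.

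**Figure D2:**
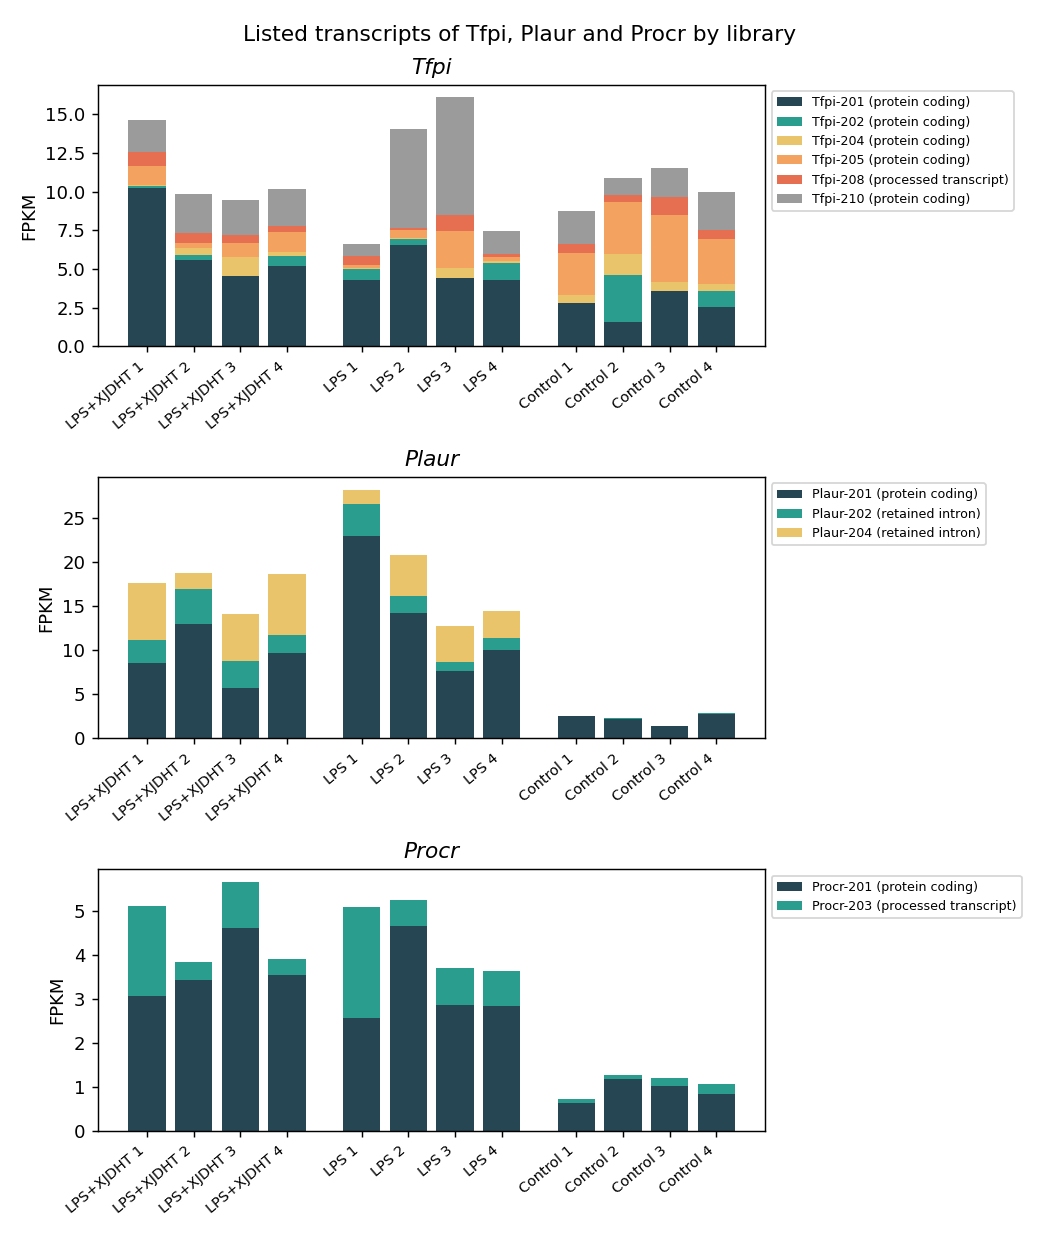
FPKM of each listed transcript of Tfpi, Plaur and Procr, stacked, in LPS+XJDHT, LPS and Control libraries (linear axis from 0, 1 bar per library). Tfpi-205 is smaller in the 8 LPS-treated libraries than in the 4 Control libraries, and the retained intron forms of Plaur are near 0 in Control.

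In Procr the coding Procr-201 rose by 1.13 ± 0.18 in LPS against Control (limma adjusted p = 0.0011). The non-coding Procr-203, too low to be tested, reached 2.07 FPKM in LPS+XJDHT 1 and 2.51 FPKM in LPS 1 and at most 0.241 FPKM in Control. Of 20 transcripts of the members listed for all libraries, 15 were tested. In LPS against Control 5 of them rose and 2 fell, where 25.6% of all transcripts were called (17.3% higher and 8.26% lower). In LPS+XJDHT against LPS 0 were called, against 0.0965% of all transcripts (0.0107% higher and 0.0858% lower). In LPS+XJDHT against Control 6 rose and 2 fell, where 25.9% of all transcripts were called (18.6% higher and 7.35% lower). Procr-201, Plaur-202 and Plaur-204 are among those that rose in both comparisons with Control, and they met the filter only with the help of LPS-treated libraries.

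Plau (chromosome 14, 20836660 to 20843385, plus strand), the urokinase-type activator, was the lowest member in both LPS-treated groups. It had 1.04, 0.896, 1.20 and 1.05 FPKM in LPS+XJDHT libraries, 1.67, 0.562, 1.20 and 0.864 FPKM in LPS libraries, and 1.13, 1.90, 1.51 and 2.55 FPKM in Control libraries. The groups overlapped, with Control 1 below the highest library of both LPS-treated groups. Without LPS 1, Plau passed in LPS against Control (-0.55, limma adjusted p = 0.043). Plau differed by a log2 fold change of -0.42 ± 0.19 in LPS against Control (limma adjusted p = 0.10) and -0.41 ± 0.19 in LPS+XJDHT against Control (limma adjusted p = 0.11). With median-ratio scaling, which sets the median gene of each library equal, Plau passed the test in both, at -0.54 (limma adjusted p = 0.034) and -0.56 (0.032). Between LPS+XJDHT and LPS it was 0.01 (95% interval -0.41 to 0.42).

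Vwf (chromosome 6, 125546774 to 125686679, plus strand) could be followed in all 12 libraries only through short transcripts, Vwf-202 and Vwf-211, which hold 10 and 15 exons. Vwf-211 is annotated as a retained intron, and its share of the sum ran from 14.4% in LPS 2 to 93.2% in LPS+XJDHT 2. The sum of Vwf-202 and Vwf-211 was 3.58, 2.56, 5.81 and 2.52 FPKM in LPS+XJDHT libraries, 3.83, 2.28, 3.00 and 3.05 FPKM in LPS libraries, and 1.88, 0.728, 2.24 and 3.28 FPKM in Control libraries. The groups overlapped, and the log2 fold change was 0.47 in LPS against Control (95% interval -0.14 to 1.09, limma adjusted p = 0.21), 0.15 in LPS+XJDHT against LPS (-0.46 to 0.77) and 0.62 in LPS+XJDHT against Control (0.01 to 1.24, limma adjusted p = 0.099). Without Control 4 the last passed, at 0.81 (limma adjusted p = 0.043). Vwf-203, with 52 exons and 8834 bases, was listed for the LPS and Control libraries and was not analysed here in LPS+XJDHT. It had 0.203, 1.20, 0.0716 and 0.0718 FPKM in LPS libraries and 0.0390, 1.08, 0.134 and 13.2 FPKM in Control libraries, with Control 4 alone high. With Vwf-203 included, the log2 fold change of LPS against Control was -0.09 (limma adjusted p = 0.91), so the direction of Vwf depends on which transcripts are summed.

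F13a1 (chromosome 13, 36867178 to 37050244, minus strand) had 18.6, 12.7, 24.8 and 16.8 FPKM in LPS+XJDHT libraries, 13.4, 11.5, 30.9 and 10.0 FPKM in LPS libraries, and 21.7, 34.0, 14.3 and 16.7 FPKM in Control libraries. In LPS, library 3 was above 3 of 4 Control libraries and the other 3 were below all of them. The log2 fold change was -0.44 in LPS against Control (95% interval -1.20 to 0.32, limma adjusted p = 0.35), and without LPS 3 it was -0.77 (limma adjusted p = 0.047). It was 0.24 in LPS+XJDHT against LPS (-0.52 to 1.00) and -0.20 in LPS+XJDHT against Control (-0.96 to 0.56). F13a1 is expressed by resident macrophages. The macrophage receptor Cd163 had 12.1, 6.13, 24.6 and 18.6 FPKM in LPS libraries 1 to 4, highest in library 3, while Adgre1, another macrophage gene, had 5.27, 4.50, 14.9 and 17.2 FPKM, highest in library 4. In Control libraries 1 to 4, Cd163 had 13.9, 11.5, 12.4 and 15.4 FPKM. Adgre1 had 4.52, 5.91, 4.08 and 5.43 FPKM there. In Control 2, where F13a1 was highest among Control libraries, Cd163 was lowest and Adgre1 highest. The other macrophage markers were not compared with F13a1. The part of macrophages in the F13a1 values was not tested.

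**Figure D3:**
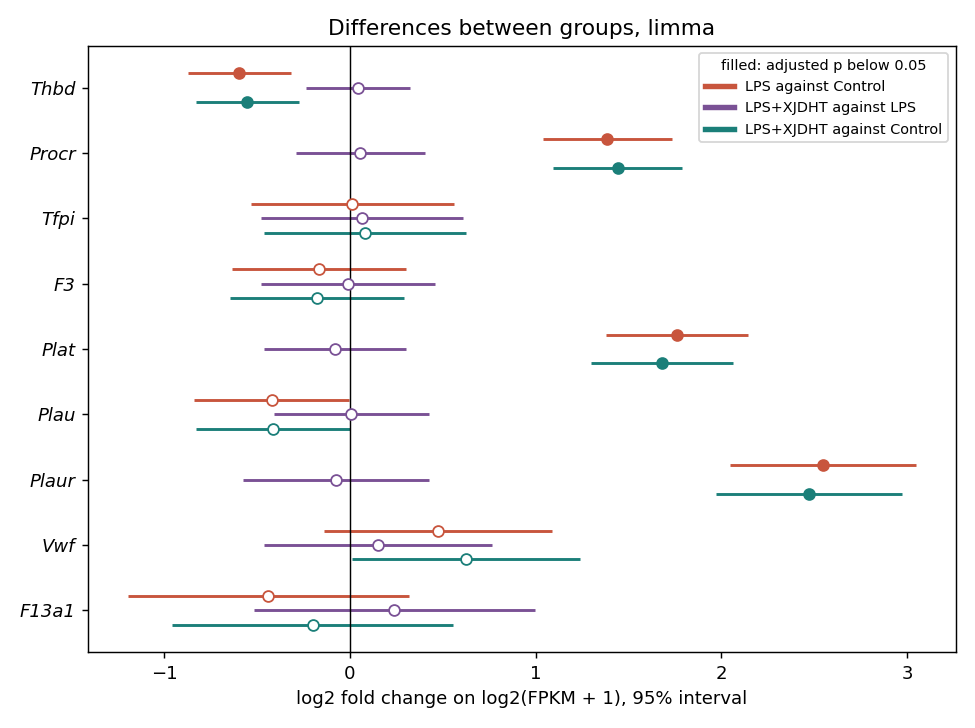
Log2 fold changes of the 9 genes with 95% intervals, on log2(FPKM + 1), for LPS against Control, LPS+XJDHT against LPS and LPS+XJDHT against Control (limma). Filled points passed an adjusted p of 0.05. The intervals of LPS+XJDHT against LPS all include 0, and that of Plaur in LPS against Control is centred on 2.55.

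The order of the members by mean level, in FPKM and so per length, differed between LPS-treated and Control hearts. In LPS+XJDHT it was Plat (41.7), F13a1 (18.2), Thbd (17.5), Plaur (17.3), Tfpi (11.03), F3 (5.06), Procr (4.64), Vwf (3.62) and Plau (1.05). In LPS it was Plat (45.2), Plaur (19.1), Thbd (16.9), F13a1 (16.5), Tfpi (11.04), F3 (5.08), Procr (4.42), Vwf (3.04) and Plau (1.07). In Control it was Thbd (25.9), F13a1 (21.7), Plat (12.3), Tfpi (10.3), F3 (5.87), Plaur (2.34), Vwf (2.03), Plau (1.77) and Procr (1.07). Neighbours whose ranges did not overlap were Plat and the next gene, Tfpi and F3, and Vwf and Plau in both LPS-treated groups. In Control they were F13a1 and Plat, Tfpi and F3, and F3 and Plaur. All other neighbours overlapped.

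Other genes of haemostasis were taken from 6 lists of 63 genes. Of the fibrinolysis genes and inhibitors, 7 of 12 were listed and tested, and Serpine2, Anxa2 and Lrp1 rose in LPS against Control while 0 fell, where 26.6% of all genes rose and 12% fell. The median log2 fold change of these 7 was -0.02, against 0.16 over all genes. Serpine2, protease nexin-1, an inhibitor of thrombin and urokinase, ranged from 31.9 to 47.9 FPKM in LPS+XJDHT, from 35.1 to 43.8 FPKM in LPS and from 13.2 to 18.9 FPKM in Control. It rose by 1.27 ± 0.14 in LPS against Control (limma adjusted p = 4.5e-05). Anxa2, a cell-surface docking protein for plasminogen and Plat, rose by 0.93 ± 0.26 (limma adjusted p = 0.014), and Lrp1, a clearance receptor for activator and inhibitor complexes, by 0.90 ± 0.33 (limma adjusted p = 0.049). The call of Lrp1 was lost in 4 other settings and on leaving out any of 7 libraries (Control 1, 2 or 4, LPS 1 or 2, LPS+XJDHT 1 or 4), and that of Anxa2 with median-ratio scaling. S100a10, Plgrkt, Serpini1 and Klk1 did not pass.

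Of the procoagulant factors 4 of 19 were listed and tested, and the other 15, among them F2, F5, F7 and the fibrinogen genes, were not analysed here. Ggcx, the vitamin K-dependent carboxylase of clotting factors and of proteins C and S, fell by 1.18 in LPS against Control (SE 0.17, limma adjusted p = 0.00028). It ranged from 1.42 to 2.89 FPKM in LPS+XJDHT, from 1.44 to 2.65 FPKM in LPS and from 5.46 to 6.44 FPKM in Control. Vkorc1, Lman1 and Mcfd2 did not pass. Of the anticoagulants 5 of 10 were tested, and Pros1, protein S, rose by 0.45 ± 0.13 in LPS against Control (limma adjusted p = 0.020) and by 0.62 ± 0.13 in LPS+XJDHT against Control (limma adjusted p = 0.0035). With median-ratio scaling Pros1 did not pass in LPS against Control (0.27, limma adjusted p = 0.13), nor without Control 3 (0.058) or LPS 4 (0.054). Serping1, Anxa5, Hs3st1 and Tfpi2 did not pass.

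**Figure D4:**
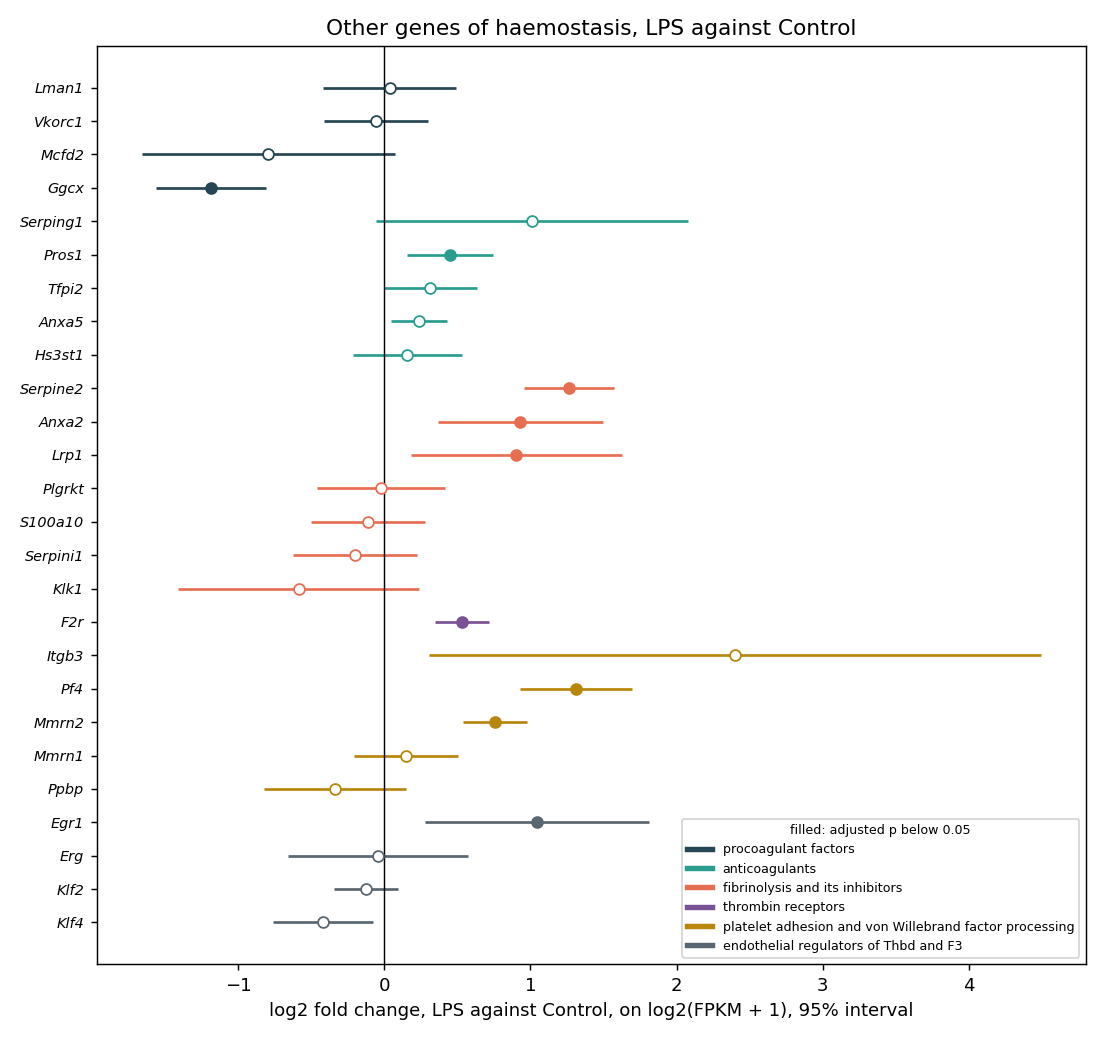
Log2 fold changes of LPS against Control with 95% intervals, on log2(FPKM + 1), for the tested genes of 6 lists of haemostasis genes (limma, colours mark the lists, filled points passed an adjusted p of 0.05). Ggcx lies at -1.18 and the fibrinolysis genes that passed lie between 0.90 and 1.27.

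F2r, the thrombin receptor PAR1, ranged from 23.9 to 27.8 FPKM in LPS+XJDHT, from 23.1 to 26.7 FPKM in LPS and from 15.4 to 17.7 FPKM in Control, and rose by 0.53 ± 0.08 in LPS against Control (limma adjusted p = 0.00053). In the list for platelet adhesion and von Willebrand factor processing, 5 of 14 genes were tested. Pf4 and Mmrn2 rose while 0 fell, where 26.6% of all genes rose. Mmrn2 is not used here as a platelet marker, and its rise is not read as one of platelets. Ppbp, a platelet chemokine like Pf4, did not pass (-0.34 in LPS against Control and -0.54 in LPS+XJDHT against Control), nor did Itgb3 or Mmrn1. Pf4, platelet factor 4, had 36.8, 29.2, 34.2 and 26.4 FPKM in LPS+XJDHT libraries, 55.4, 44.5, 47.6 and 47.7 FPKM in LPS libraries, and 19.4, 28.0, 16.0 and 14.9 FPKM in Control libraries. The LPS+XJDHT and LPS libraries of Pf4 did not overlap, which held for 2.82% of all genes. Its log2 fold change was 1.31 ± 0.18 in LPS against Control (limma adjusted p = 0.00017), and -0.62 ± 0.18 in LPS+XJDHT against LPS did not pass (limma adjusted p = 0.86). Of the endothelial regulators of Thbd and F3, Egr1 rose by 1.04 ± 0.35 in LPS against Control (limma adjusted p = 0.034), a call lost without Control 2, Control 3, LPS 1 or LPS 2 (limma adjusted p 0.070 to 0.090). It was also lost with only the compared groups (0.058), median-ratio scaling (0.061), limma-voom (0.051) and all Control and LPS transcripts (0.056). Klf2, Klf4 and Erg did not pass. Klf4 was -0.42 ± 0.16 (limma adjusted p = 0.052). In LPS+XJDHT against LPS 0 genes of the 6 lists passed.

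Markers of several cell types also differed between groups, and their part in the results was not tested. Counts of markers are to be read against 26.6% of all genes higher and 12% lower in LPS against Control. Sums over the 10 endothelial markers were 305 to 348 FPKM in LPS+XJDHT, 261 to 358 FPKM in LPS and 237 to 279 FPKM in Control, and 1 of 10 (Cldn5) rose in LPS against Control and 4 of 10 (Eng, Esam, Cldn5 and Egfl7) in LPS+XJDHT against Control, where 28.5% of all genes rose. Smooth muscle and pericyte markers, with 2 of 8 lower in LPS against Control (Myh11 and Rgs5) and 1 of 8 (Rgs5) in LPS+XJDHT against Control, summed to 201 to 329 FPKM in LPS+XJDHT, 187 to 257 FPKM in LPS and 252 to 295 FPKM in Control. Rgs5, a pericyte marker, ranged from 60.0 to 70.8 FPKM in LPS+XJDHT, from 52.9 to 82.9 FPKM in LPS and from 145 to 149 FPKM in Control, and fell by 1.04 in LPS against Control (SE 0.12, limma adjusted p = 7.8e-05). Sums over the 6 listed neutrophil markers, of which 4 were tested and 4 rose, were 73.1 to 150 FPKM in LPS+XJDHT, 76.8 to 116 FPKM in LPS and 0.957 to 2.69 FPKM in Control. Plaur is a gene of neutrophils and monocytes as well as of endothelium. Sums over the 3 listed monocyte markers, of which 2 rose, were 17.8 to 35.9 FPKM in LPS+XJDHT, 23.4 to 30.5 FPKM in LPS and 0.184 to 4.48 FPKM in Control. The tested neutrophil and monocyte markers met the filter only with the help of LPS-treated libraries. Their counts of genes that rose can therefore not be set against the share of all genes. Macrophage markers, with 3 of 8 higher in LPS against Control (Cd68, Itgam and Fcgr1), summed to 92.4 to 123 FPKM in LPS+XJDHT, 62.5 to 182 FPKM in LPS and 59.5 to 77.4 FPKM in Control. In LPS+XJDHT against Control the same 3 were higher and 1 of 8, Csf1r, was lower (-0.81 ± 0.22, limma adjusted p = 0.012), where 10.7% of all genes fell. Csf1r in LPS against Control, at -0.59 ± 0.22, did not pass (limma adjusted p = 0.052). Fibroblast markers, with 4 of 7 higher, summed to 683 to 1070 FPKM in LPS+XJDHT, 763 to 1005 FPKM in LPS and 405 to 501 FPKM in Control. The erythroid markers, with 3 of 4 lower, summed to 114 to 192 FPKM in LPS+XJDHT, 191 to 599 FPKM in LPS and 989 to 1232 FPKM in Control.

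The genes most like each member over the 12 libraries were found by the mean absolute difference of z-scores. The median distance over the genes compared was 1.29 from Thbd, 0.92 from Procr, 1.14 from Tfpi, 1.11 from F3 and 0.91 from Plat. It was 1.17 from Plau, 0.91 from Plaur, 0.95 from Vwf and 1.17 from F13a1. The nearest genes are by choice the smallest of all distances, so a small value is no result in itself. The 2 nearest genes were Ndufa6 (0.18) and Dexi (0.28) for Thbd, Hnrnpdl (0.11) and Rps12-ps3 (0.12) for Procr, and Rlim and Col4a1 (0.10 each) for Plat. They were Cnksr1 and Tmed5 (0.10 each) for Plaur. Among members that did not pass in LPS against Control they were Mrpl23-ps1 (0.35) and Nmnat3 (0.50) for Tfpi, Lrba (0.38) and Tepsin (0.40) for F3, and Adal (0.28) and Slc18b1 (0.30) for Plau. For Vwf they were Nid1 (0.32) and Glg1 (0.33), and for F13a1 Pfdn5 (0.29) and Irak3 (0.39). Rps12-ps3 and Mrpl23-ps1 are pseudogenes, whose reads may belong to their parent genes.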

How the data were processed

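Heart RNA without ribosomal RNA (rRNA depletion, per the labels) was sequenced in 12 libraries. The authors deposited 1 FPKM value per transcript and library. Their files do not name the unit, which was read from the values. Values above 0 were multiplied by transcript length and a factor fixed per library. That factor was chosen to bring the most of the lowest products, 6917 to 7192 per library, within 0.1 of whole fragments. It brought 98.7% to 99.1% of these there and gave the depth, while higher products were not examined. The build mm10 and the tool limma are named in the submitters' processing notes, and no aligner or counting tool is given in the sources used here.

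Transcripts listed numbered 36293 for Control and LPS and 35802 for LPS+XJDHT. FPKM was summed per gene over the 24723 annotated transcripts in both. Transcripts assembled by the authors, which carry no gene name and held 6.45% to 8.01% of FPKM, were left out. Values were log2-transformed with a pseudocount of 1 and fitted with limma 3.58.1 in R 4.3.3 (1 mean per group, intensity trend, Benjamini-Hochberg, two-sided). Transcripts were fitted likewise. Shares of transcripts used exact permutation tests. Python 3.11.15, NumPy 2.4.6, pandas 2.3.3, SciPy 1.17.1 and matplotlib 3.10.9 did the rest. On simulated data for LPS against Control (11509 genes), 75 of 100 genes changed by 1 and 92 of 100 changed by 2 on the log2 scale were recovered, with 9 false calls. The changed genes were drawn only from those with a mean log2(FPKM + 1) of at least 2, and Procr, Plau and Vwf lay below that. Noise was normal, and far fewer genes were changed than were called in the data.

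The members and lists were chosen with earlier results of these data known. All members are described, with list genes past the threshold named and values given for up to 4 per list. A list gene and the ratios that use it are not reported here. Alternatives were pseudocounts of 0.1 and 0.5, no filter, a limit of 5 FPKM, only the compared groups, limma-voom on recovered fragments, median-ratio scaling, all Control and LPS transcripts, and leaving out each library.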

Additional observations from a re-analysis of the deposited data

Results flagged for a closer look

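In 87 groups of 4 libraries examined, 8 held 1 library far from the other 3, where chance alone gives about 1 in 20. Thbd had 29.3 FPKM in Control 2 and 24.6 to 24.97 FPKM in the other Control libraries. Tfpi had 14.6 FPKM in LPS+XJDHT 1 and 9.45 to 10.2 FPKM in the other LPS+XJDHT libraries. F13a1 had 30.9 FPKM in LPS 3 and 10.0 to 13.4 FPKM in the other LPS libraries. Pros1 had 8.9996 FPKM in Control 3 and 10.4 to 10.7 FPKM in the other Control libraries. Among transcripts, Tfpi-201 had 6.54 FPKM in LPS 2 and 4.29 to 4.40 FPKM in the other LPS libraries, and Procr-201 had 4.66 FPKM in LPS 2 and 2.58 to 2.86 FPKM in the others. Vwf-202 had 1.05 FPKM in LPS 3 and 1.82 to 1.95 FPKM in the other LPS libraries. Plaur-204 had 0.0265 FPKM in Control 2 and was listed at 0 in the other Control libraries.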

How the results depend on the processing

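The calls of Thbd, Procr, Plat and Plaur against Control kept their direction and passed in every alternative run. Median-ratio scaling took the median log2 fold change of all genes to 0.0079 in LPS against Control (0.16 otherwise) and to 0.0023 in LPS+XJDHT against Control (0.19 otherwise). It gave 2145 higher and 2109 lower genes in LPS against Control, against 3063 and 1384, and 1966 and 2044 in LPS+XJDHT against Control, against 3278 and 1234. Under it 2 members were lower in each of these comparisons, since Plau joined Thbd. Small differences changed sign: Tfpi in LPS against Control became -0.17 with median-ratio scaling and -0.13 with limma-voom, and in LPS+XJDHT against Control -0.15 and -0.18. Vwf in LPS against Control became -0.087 with all Control and LPS transcripts. In LPS+XJDHT against LPS, Thbd became -0.0024 and Plau -0.012 with median-ratio scaling (-0.012 and -0.017 as transcripts), and Tfpi -0.050 with limma-voom. The genes called in LPS+XJDHT against LPS numbered 13, but 43 with no filter and 1 at 5 FPKM, and the transcripts 18, but 11 with a pseudocount of 0.1, 41 with no filter and 1 at 5 FPKM. At 5 FPKM, 3114 transcripts were called in LPS against Control and 3106 in LPS+XJDHT against Control, with 3 member transcripts higher and 1 lower in each, as fewer were tested. With a pseudocount of 0.1, 1 member transcript was lower in LPS+XJDHT against Control. Leaving out 1 library at a time gave 4 to 16 genes and 3 to 27 transcripts called in LPS+XJDHT against LPS, 1 to 2 members lower in LPS against Control (Plau without LPS 1, F13a1 without LPS 3), and 1 to 2 member transcripts lower in LPS+XJDHT against Control. It turned the sign of uncalled differences, with these ranges. For LPS+XJDHT against LPS they were -0.040 to 0.116 for Thbd, -0.029 to 0.129 for Procr, -0.124 to 0.264 for Tfpi, -0.153 to 0.147 for F3, -0.186 to 0.095 for Plat, -0.120 to 0.138 for Plau, -0.238 to 0.125 for Plaur, -0.054 to 0.264 for Vwf, -0.049 to 0.249 for Anxa2 and -0.182 to 0.256 for Lrp1. Thbd, F3, Plat and Plau have the same ranges as transcripts. For transcripts in that comparison they were -0.029 to 0.501 for F13a1-201, -0.463 to 0.101 for Vwf-202 and -0.705 to 0.044 for Tfpi-210, and for shares -0.094 to 12.3 percentage points for Tfpi-201 and -8.20 to 2.82 for F13a1-201. They were -0.184 to 0.204 for Tfpi in LPS against Control. In LPS+XJDHT against Control they were -0.053 to 0.141 for Tfpi, -0.364 to 0.033 for F13a1, -0.066 to 0.498 for Vwf-202 and -0.0080 to 0.539 for F13a1-205. The cause of the other changes was not tested. No paired analysis was possible because the replicate numbers follow accession order and the mouse numbers are not shared between groups.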
